A study of Mus musculus with 2 samples.

Results

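Monocyte and neutrophil progenitors of mouse bone marrow were compared within each of 2 single-cell libraries, one labelled Control and one labelled Runx1 KO. The deposited cell annotation gives every cell a class named by 1 or 2 genes. Cells of the Ly86 class were taken as the monocyte end, cells of the Gstm1/CD63 class as the neutrophil end, and cells of the Gstm1/Ly86 class were placed between them. These 3 classes held 3600 of the 14795 deposited cells, 2253 of 6906 in Control and 1347 of 7889 in the Runx1 KO library. The cells came from hind limb bone marrow of C57BL/6 mice and were sorted as LKS- (no lineage markers, no Sca1, but c-Kit on the surface), a gate that holds committed myeloid, erythroid and megakaryocyte progenitors. Control was a pool of 2 mice, 1 carrying floxed Runx1 alleles (Runx1f/f) and 1 with a floxed and a germline mutant allele (Runx1f/-), so part of the control cells came from an animal with a mutated copy of the gene. For the library labelled Runx1 KO, neither the number of mice, nor the Cre driver, nor the age is given in the labels. Another label describes the cells as embryonic, and the tissue and extraction labels, which name bone marrow, were followed.

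Monocytes and neutrophils arise from a shared granulocyte-monocyte progenitor. The interferon regulatory factor Irf8 drives the monocyte and dendritic fate and restrains the neutrophil one, while Gfi1 and the C/EBP family factor Cebpe drive granule formation in neutrophil precursors. Neutrophil progenitors make the primary (azurophil) granule proteases first, and secondary and tertiary granule proteins only at later stages. Runx1, the gene targeted here, encodes a DNA-binding factor that acts together with Cbfb and is required in several steps of blood formation.

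The classes were well filled, and their sums ran from 3281226 to 36967710 unique molecular identifiers (UMIs, counts of distinct captured RNA molecules). Median UMIs per cell were 28550.5, 27668 and 28810 in Control for Ly86, Gstm1/Ly86 and Gstm1/CD63, and 26441, 24267 and 26825 in the Runx1 KO library. Levels are given as CPM, the UMIs of a gene per 1000000 UMIs summed over a class in a library. The contrast of a gene is log2 of its CPM in Ly86 over its CPM in Gstm1/CD63, with 10 CPM added to both, so that positive values are on the monocyte side. Of 31053 genes, 4491 reached 30 CPM in at least 1 end class of 1 library and 100 UMIs over both ends of both libraries, and these are called measured. Each genotype had 1 library, so there is no replicate check of any difference between genotypes and no test was made. Intervals are exact at 95% and cover counting error only. Since the classes were made from these same cells, differences between classes describe the classes, and any difference set between genotypes is a difference between 2 libraries. The libraries shared 13 cell barcodes, and 8 of the cells that carried them were in these classes.

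The labels of the classes were set beside cell type markers, whose lists also hold the class-naming genes Ly86, Gstm1 and Cd63, so part of this restates the names. The 10 listed monocyte progenitor markers summed to 2254 CPM in Ly86, 1156 in Gstm1/Ly86 and 457 in Gstm1/CD63 in Control, and to 2464, 884 and 229 CPM in the Runx1 KO library. The 10 listed neutrophil progenitor markers were highest in Gstm1/CD63, at 11851, 16670 and 27861 CPM in Control and 15533, 15373 and 25475 CPM in the Runx1 KO library, where Gstm1/Ly86 was not above Ly86. Summed over its cells, the Ly86 class thus carried much granule RNA in both libraries. This RNA was uneven over the clusters described further on. In Control, Elane was at 1463 CPM in the 836 Ly86 cells of cluster 2. It was at 5482 and 4947 CPM in the 151 and 40 Ly86 cells of clusters 9 and 10. In the Runx1 KO library it was at 1796 CPM in the 386 of cluster 2 and 4141 CPM in the 42 of cluster 10. Erythroid markers summed to at most 155 CPM in the 3 classes, against 4141 CPM in the erythroid Car1 class of Control. Megakaryocyte markers summed to 31.6 and 87.0 CPM in Ly86 and Gstm1/CD63 of Control and to 122 and 205 CPM in the Runx1 KO library. Mature B and plasma cell markers summed to 253 and 64.6 CPM in the same classes of Control and to 255 and 96.3 CPM in the Runx1 KO library, with Cd79a, Ms4a1, Jchain and Igkc under 1 CPM in every class. The part of these cell types in the contrasts was not tested.

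Irf8 led the monocyte side when genes were ranked by the smaller of their 2 contrasts, although F13a1 was further apart in Control and Ly86 in the Runx1 KO library. Its level in Control was 493 CPM in Ly86, 193 in Gstm1/Ly86 and 27.2 in Gstm1/CD63. The Runx1 KO levels were 393, 146 and 19.8 CPM. The ratio of the ends was 18.1 in Control (interval 16.6 to 19.9) and 19.8 in the Runx1 KO library (17.8 to 22.1), and the contrast was 3.76 in both. Irf8 lies on chr8:120736358-120756694 (plus strand, GRCm38). After thinning every cell to 5000 UMIs, 83.1% of Ly86 cells and 11.4% of Gstm1/CD63 cells of Control had an Irf8 UMI, against 3.29% of erythroid Car1 cells, which should lack it. The shares were 78.0%, 7.66% and 0.993% in the Runx1 KO library. Without thinning the Control shares were 95.5%, 32.7% and 8.28%.

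Ly86, which encodes the MD-1 partner of the Toll-like receptor relative RP105 and gives the class its name, followed the same order. It stood at 212, 101 and 10.2 CPM in Control from the monocyte end to the neutrophil end, and at 201, 64.6 and 1.78 CPM in the Runx1 KO library. Its contrast was 3.46 in Control and 4.16 in the Runx1 KO library, where the neutrophil end held 32 UMIs of it in all. F13a1, the A subunit of coagulation factor XIII, was at 438, 194 and 18.9 CPM in Control. In the Runx1 KO library it was higher at both ends, at 723, 329 and 73.4 CPM, and its contrast was 3.14 against 3.96.

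Receptors that monocytes use to grow and migrate stood on the same side. Csf1r, the M-CSF receptor, was at 66.0, 35.3 and 7.54 CPM in Control and 76.8, 35.0 and 11.1 CPM in the Runx1 KO library. Ccr2, the receptor for the monocyte chemokine CCL2, was at 108, 57.9 and 5.32 CPM in Control and 165, 41.4 and 9.47 CPM in the Runx1 KO library. Il6ra, the interleukin 6 receptor, had a contrast of 1.55 in Control and 1.27 in the Runx1 KO library. Of 17 measured cytokine and chemokine receptors, 6 were at least 2-fold higher in Ly86 in Control and 4 in the Runx1 KO library, against 2.14% and 1.94% of all measured genes, and 1 and 0 were at least 2-fold higher in Gstm1/CD63, against 1.54% and 1.05%. Csf2ra and Csf3r, the receptors for GM-CSF and G-CSF, had contrasts of -0.41 and -0.43 in Control. The interferon gamma receptor chains parted: Ifngr1 had a contrast of -1.30 in Control and -0.68 in the Runx1 KO library, while Ifngr2 had 0.74 and 0.86.

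The other leading monocyte-side genes were effector and signalling genes. Ctss, a lysosomal cysteine protease of antigen-presenting cells, was at 47.2 CPM in Ly86 of Control and 90.2 CPM in the Runx1 KO library, and the neutrophil ends held 4 and 3 UMIs of it. Fcer1g, the signalling chain of Fc receptors, was at 365 and 360 CPM in Ly86 against 76.7 and 59.0 CPM in Gstm1/CD63. Ms4a6c stood at 436 and 486 CPM in Ly86 against 48.8 and 64.3 CPM. Pld4, a lysosomal nuclease, Tpm4, Ifi209 and Rasa4 made up the rest of the 12 strongest, with contrasts of 1.99 to 2.67 over both libraries. All 12 lay in the order Ly86, Gstm1/Ly86, Gstm1/CD63 in both libraries.

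**Figure D1:**
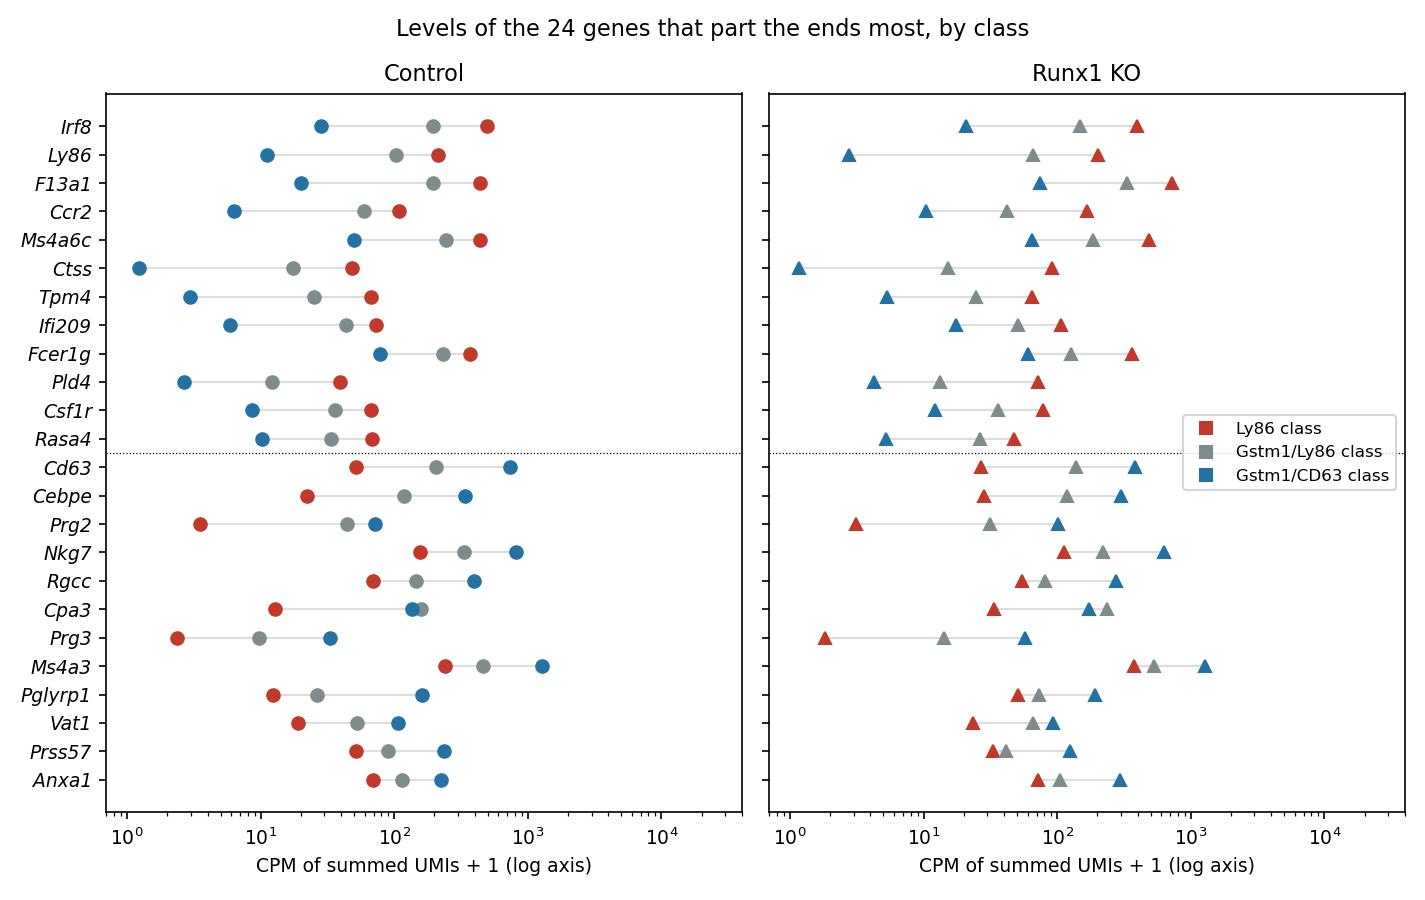
Levels of the 12 genes with the strongest contrast on the monocyte side (above the dotted line) and the 12 on the neutrophil side (below it), as CPM of summed UMIs plus 1 on a log axis, with 1 point per class, Control at left and Runx1 KO at right. The Gstm1/Ly86 points lie between the ends for every gene but Cpa3, which was highest in Gstm1/Ly86 in both libraries.

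On the neutrophil side, Cd63, a tetraspanin of azurophil granule membranes, and Cebpe led. Cd63 was at 50.6 CPM in Ly86, 203 in Gstm1/Ly86 and 737 in Gstm1/CD63 of Control. It was lower in all 3 classes of the Runx1 KO library, at 26.0, 137 and 383 CPM, and the ratio of the ends was 14.6 in Control (13.9 to 15.3) and 14.7 in the Runx1 KO library (13.3 to 16.3). The level thus differed between libraries while the intervals of the ratio overlapped. Cd63 was at 142 CPM in the Car1 class of Control, where 44.7% of thinned cells had a UMI, so it is not restricted to these cells. Cebpe was at 21.4, 117 and 338 CPM in Control and 27.5, 118 and 298 CPM in the Runx1 KO library, a ratio of 15.8 (14.7 to 17.1) and 10.8 (9.78 to 12.0). Gfi1 was at 16.2, 39.4 and 79.3 CPM in Control and 21.9, 52.4 and 80.7 CPM in the Runx1 KO library. The circadian gene Per3 also stood on this side, with contrasts of -1.27 and -1.08. Among the other listed neutrophil factors, Satb1 stood on the monocyte side at 1.33 and 0.78, and the rest parted less, with contrasts of -0.18 and -0.30 for Cebpa and -0.07 and -0.37 for Stat3. Cebpb and Cebpd had contrasts of -0.17 and -0.06 in Control and 0.67 each in the Runx1 KO library.

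The primary granule genes leaned to the neutrophil end, but by less than Cd63 or Cebpe. Of 12 measured, 11 were below 0 in each library. Their median contrast was -0.99 in Control and -0.71 in the Runx1 KO library, against 0.02 and 0.00 over all measured genes. Elane, neutrophil elastase, was at 1962, 3126 and 7389 CPM in Control and 2374, 2161 and 5801 CPM in the Runx1 KO library. Ms4a3, a membrane protein of granulocyte-monocyte progenitors, was at 240, 462 and 1268 CPM in Control and 372, 528 and 1281 CPM in the Runx1 KO library. Prss57, a further serine protease, was at 50.4, 88.4 and 234 CPM in Control and 32.2, 40.2 and 124 CPM in the Runx1 KO library. Nkg7, a granule membrane protein also found in cytotoxic lymphocytes, was at 154, 329 and 820 CPM in Control and 112, 220 and 631 CPM in the Runx1 KO library, while the T cell markers Cd3e and Cd3g were under 1 CPM in all 6 class sums. Mpo, myeloperoxidase, parted little, with contrasts of -0.82 and -0.57. For 10 of the 12 the contrast was closer to 0 in the Runx1 KO library. So it was for 124 of the 195 measured genes parted 2-fold in at least 1 library. Among the 12, Ctsc, the protease that activates granule serine proteases, was the exception in sign, at 0.55 in Control and 1.82 in the Runx1 KO library.

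Some genes of eosinophils and of basophils and mast cells also lay on the neutrophil side. Prg2, the eosinophil major basic protein, was at 2.49, 43.5 and 71.2 CPM in Control and 2.11, 30.5 and 99.7 CPM in the Runx1 KO library. In Gstm1/CD63, 14 of 621 Control cells and 20 of 657 Runx1 KO cells held at least 10 Prg2 UMIs, and these cells held 92.8% and 96.0% of its UMIs. The 8 listed eosinophil markers summed to 126 CPM in Gstm1/CD63 and 8.74 in Ly86 of Control, and to 181 and 7.36 CPM in the Runx1 KO library, while Il5ra and Ccr3 were under 1 CPM in every class. Cpa3, the carboxypeptidase of mast cells and basophils, had a UMI in 53.5% and 59.2% of Gstm1/CD63 cells of Control and Runx1 KO, and in 38.0% and 43.2% of Car1 cells, without thinning. It was at 11.8, 157 and 135 CPM in Control and 32.5, 237 and 172 CPM in the Runx1 KO library, and its level in Gstm1/Ly86 was the highest of the 3 in both. The 8 basophil and mast cell markers summed to 314 CPM in Gstm1/Ly86 of Control and 370 CPM in the Runx1 KO library, against 228 and 213 CPM in Gstm1/CD63. Their part in the placing of Gstm1/Ly86 was not tested.

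Over all measured genes, few parted the fates by 2-fold. In Control, 96 were at least 2-fold higher in Ly86 (2.14% of 4491) and 69 in Gstm1/CD63 (1.54%). The Runx1 KO counts were 87 (1.94%) and 47 (1.05%). Both libraries shared 66 genes on the Ly86 side (1.47%), which is 68.8% of the Control genes and 75.9% of the Runx1 KO genes. They shared 37 on the Gstm1/CD63 side (0.824%), which is 53.6% and 78.7%. All 96 monocyte-side genes of Control had a contrast above 0 in the Runx1 KO library, and 66 of the 69 neutrophil-side genes had one below 0. Across the 4491 genes, which are not independent replicates, the contrasts of the 2 libraries correlated at Pearson 0.82 and Spearman 0.72. Of the 195 genes parted 2-fold in at least 1 library, 124 had a contrast closer to 0 in the Runx1 KO library.

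**Figure D2:**
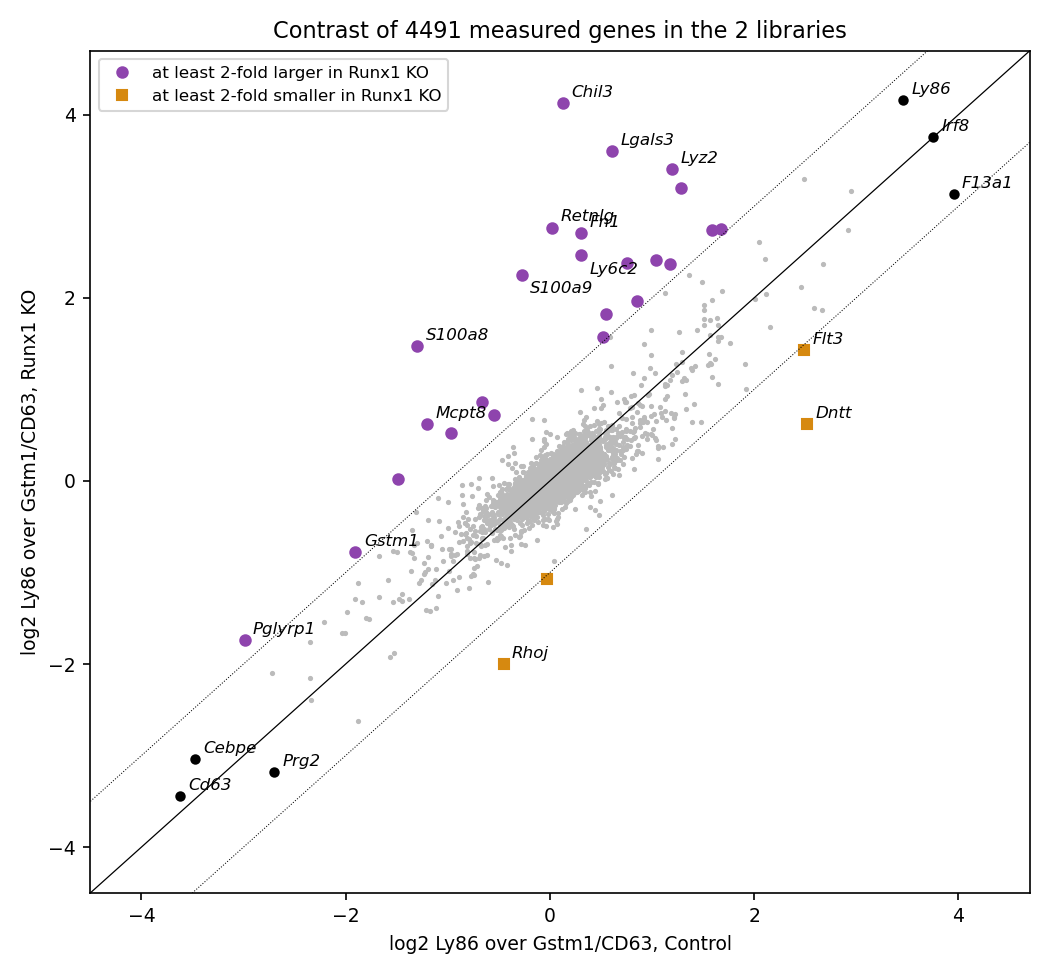
Contrast of 4491 measured genes (log2 CPM in Ly86 over Gstm1/CD63) in Control on the horizontal axis and in Runx1 KO on the vertical axis. The solid line marks equal contrasts and the dotted lines a 2-fold difference, and the 24 genes above and 4 genes below the dotted lines are coloured.

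The gene lists were chosen with earlier results of these data known. The monocyte list holds the class-naming gene Ly86 and the primary granule list holds Cd63, so their sides were partly given in advance. Monocyte surface and effector genes had the highest median, 1.51 in Control and 2.38 in the Runx1 KO library over 25 measured members. Of these, 18 and 21 were at least 2-fold higher in Ly86, against 2.14% and 1.94% of all measured genes. In Gstm1/CD63, 0 were at least 2-fold higher, against 1.54% and 1.05%. The 4 measured monocyte and dendritic factors had medians of 1.15 and 0.72, with Irf8 far above Tcf4 and Zeb2 and with Spi1, which both fates use, at -0.13 and -0.05. Adhesion genes had a median of 0.98 in Control over 10 members, among them Emb (1.51) and the selectin ligand Selplg (1.32). In the Runx1 KO library their median was 0.58, with Emb at 1.86 and Selplg at 0.95. At the other end, 17 of 18 endoplasmic reticulum folding genes were below 0 in each library. Their medians were -0.39 and -0.19, against 0.02 and 0.00 over all measured genes. None was past 2-fold on that side, against 1.54% and 1.05% of all measured genes. Calreticulin, Calr, was at 1546 CPM in Ly86 and 2291 CPM in Gstm1/CD63 of Control. The exception was Prdx4, a peroxidase of the same compartment, at 114 CPM in Ly86 and 10.6 CPM in Gstm1/CD63 of Control and at 308 and 75.9 CPM in the Runx1 KO library.

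For late granule and S100 genes the list median had another sign in each library, while most members kept theirs. The 8 measured secondary and tertiary granule genes had medians of -0.61 in Control and 0.92 in the Runx1 KO library, with 2 and 5 members above 0, and the 8 S100 genes -0.23 and 1.25, with 3 and 6 above 0. Both lists hold S100a8 and S100a9, and the first also holds Chil3 and Retnlg, genes carried by few cells. Without the Ly86 cells of cluster 22, described further on, the Runx1 KO medians were 0.64 and 0.79. Anxa1, annexin A1, stayed on the neutrophil side in both libraries, at -1.57 and -1.92.

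Cell cycle genes parted a little. Of 35 measured G2/M genes, 34 were above 0 in Control, with a median of 0.43 against 0.02 over all measured genes. Among them 4 passed 2-fold, with Mki67 (1.19) and Kif23 (1.20), against 2.14% of all measured genes. The Runx1 KO median was 0.17, none passed 2-fold, and Mki67 and Kif23 stood at 0.58 and 0.40. These values rest on which clusters are counted. Keeping only clusters that held at least 10% of a class in both libraries left cluster 2 for Ly86 and cluster 10 for Gstm1/CD63. The latter held 20.6% of the Gstm1/CD63 cells of Control and 34.4% of those of the Runx1 KO library. Over these clusters the list medians were 0.08 and -0.32. Mki67 was at 0.33 in Control and -0.33 in the Runx1 KO library, and Kif23 at 0.49 and -0.22. S phase genes had medians of 0.17 and 0.14, and ribosome biogenesis genes 0.02 and -0.07. Of the MHC class II genes only 3 of 8 were measured, and none parted 2-fold. NADPH oxidase subunits had medians of 0.10 and 0.38, with Cybb, its catalytic subunit, at 1.12 and 2.06, the latter being 1.40 without the Ly86 cells of cluster 22. The Runx family and partners had a median of 0.48 in Control and -0.16 in the Runx1 KO library over 5 genes, none of them past 2-fold.

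**Figure D3:**
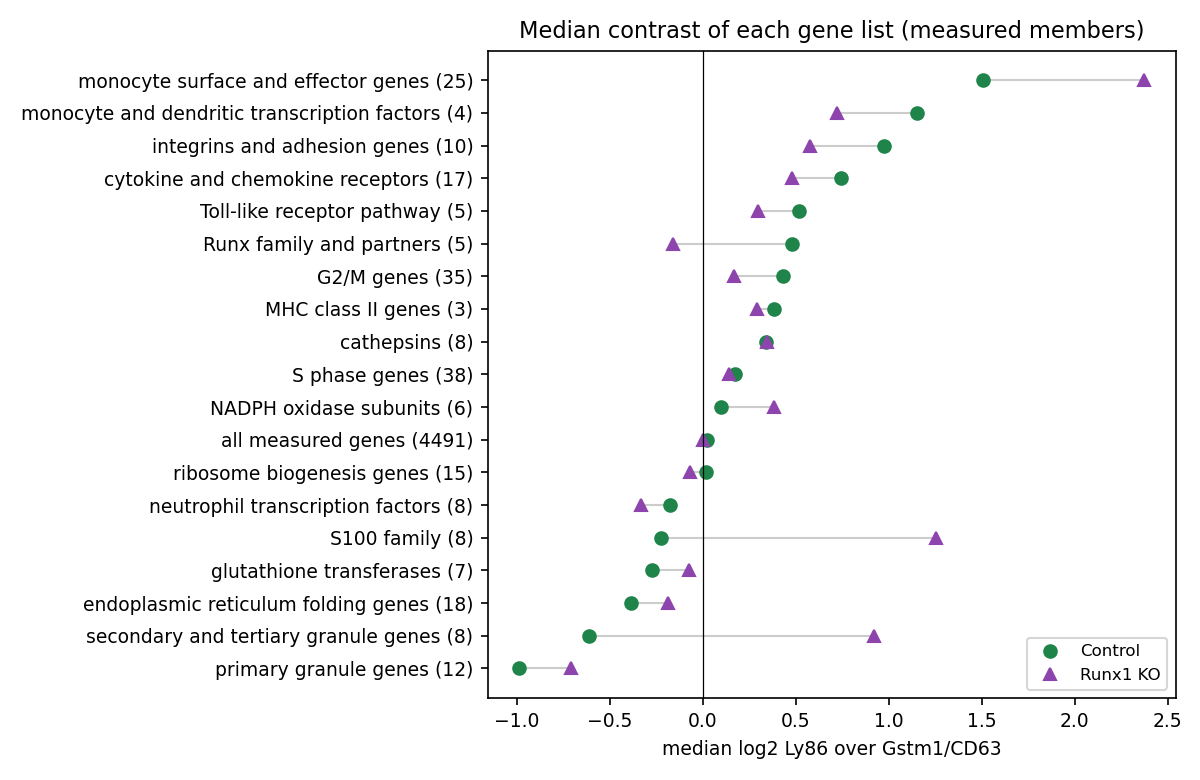
Median contrast of the measured members of each gene list (number in brackets), in Control (circles) and Runx1 KO (triangles), with all measured genes as reference near 0. The medians of the S100 family and of the secondary and tertiary granule genes lie below 0 in Control and above 0 in Runx1 KO.

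The Gstm1/Ly86 class lay between the ends for most parted genes. Its position was set as 0 at the Gstm1/CD63 level and 1 at the Ly86 level on the log2 scale. Over the 165 genes parted 2-fold in Control the median position was 0.575, and 161 of them lay between the ends. Over the 134 genes of the Runx1 KO library it was 0.468, and 124 lay between. Irf8 sat at 0.651 and 0.636, and Cebpe at 0.418 in both, so each fate's leading factor was nearer to its own high level than to its low one. In the Runx1 KO library Elane and Gstm1 went past the monocyte end, at 1.10 and 1.38.

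Since a class sum does not show what single cells hold, the cells were also examined after thinning to 5000 UMIs. In Gstm1/Ly86 of Control, 24 of 257 cells (9.34%, interval 6.08 to 13.6) had UMIs of both Irf8 and Cebpe. Irf8 alone was found in 39.7% and Cebpe alone in 23.3%. In the Runx1 KO library 8 of 126 cells (6.35%, 2.78 to 12.1) had both, 29.4% Irf8 alone and 34.1% Cebpe alone. Both together were found in 4.86% of Ly86 and 7.24% of Gstm1/CD63 cells of Control. In the Runx1 KO library they were found in 7.58% of Ly86 cells (5.49 to 10.1), which is not below Gstm1/Ly86, and in 5.51% of Gstm1/CD63 cells. At this depth a gene can be missed in a cell that expresses it, and thinning left out 49 and 11 cells of Gstm1/Ly86.

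The log2 ratio of monocyte list UMIs to primary granule list UMIs in each thinned cell gave a continuous view. Its medians were -0.88, -2.27 and -3.60 in Control for Ly86, Gstm1/Ly86 and Gstm1/CD63, and -1.48, -2.74 and -4.00 in the Runx1 KO library. Between the medians of the ends lay 230 of 257 Gstm1/Ly86 cells of Control (89.5%) and 90 of 126 in the Runx1 KO library (71.4%). In Control 5.06% were at or below the neutrophil median and 5.45% at or above the monocyte median, and in the Runx1 KO library 12.7% and 15.9%. Clustering of all cells without the class names split Gstm1/Ly86 over several clusters. Cluster 2, led by F13a1, Ly86 and Irf8, took 73 of its 306 Control cells, and clusters 9 and 10, led by Elane and by Ms4a3 with Cebpe among the top genes of both, took 89 and 31. Cluster 18, whose cells had a median of 3270 UMIs, took 58, and cluster 5, led by Dntt, took 43. In the Runx1 KO library cluster 2 took 36 of 137 cells, and clusters 10, 11 and 14 took 29, 29 and 25. Cluster 11 is led by Elane and Ms4a3 and cluster 14 by Cpa3.

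**Figure D4:**
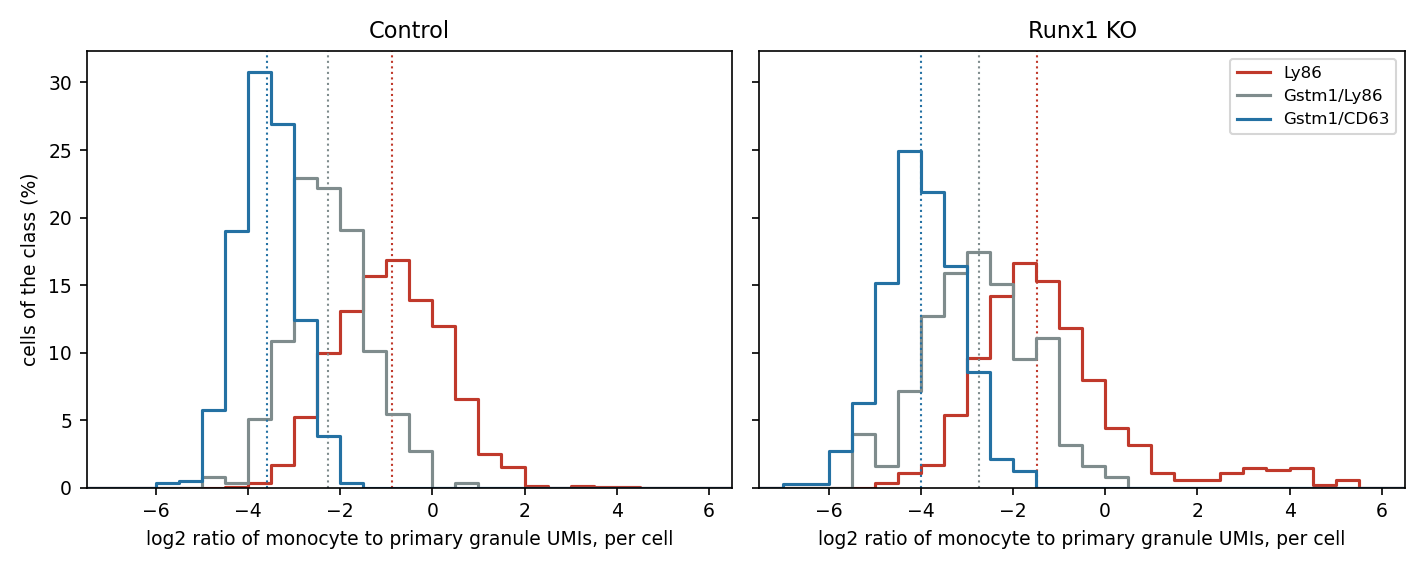
Distribution over cells thinned to 5000 UMIs of the log2 ratio of monocyte list to primary granule list UMIs, as the percentage of each class in bins 0.5 wide, in Control (left) and Runx1 KO (right), with dotted lines at the class medians. Gstm1/Ly86 lies between the ends, and in Runx1 KO a tail of Ly86 cells reaches above 2.5.

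The 2 libraries differed in how the ends were filled. Ly86 cells made up 19.2% of Control cells (18.3 to 20.1) and 7.01% of the Runx1 KO cells (6.46 to 7.60). Gstm1/CD63 cells made up 8.99% (8.33 to 9.69) and 8.33% (7.73 to 8.96). There were 2.14 Ly86 cells for each Gstm1/CD63 cell in Control and 0.842 in the Runx1 KO library. Gstm1/Ly86 was 4.43% and 1.74% of cells. Shares are of all deposited cells, so a share also moves with the other classes.

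Different clusters held the neutrophil end in the 2 libraries. Cluster 9 held 456 of the 621 Control cells of Gstm1/CD63 and 8 of the 657 Runx1 KO cells, while cluster 11 held 2 and 366, and cluster 10 held 128 and 226. The monocyte end sat mostly in cluster 2, with 836 of 1326 and 386 of 553 cells. Outside it, cluster 5, led by Dntt, Cxcl12 and Flt3, held 213 Control and 4 Runx1 KO cells of Ly86. Clusters 9, 10 and 11, which held most of the neutrophil end, also held 151, 40 and 0 Control cells of Ly86. In the Runx1 KO library they held 22, 42 and 35. Cluster 18 held 84 Control and 2 Runx1 KO cells of Ly86. Cluster 22, led by Lgals3, Lyz2, Fn1 and S100a4, held 2 and 41. The contrasts above are sums over all these clusters.

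The contrast was at least 2-fold larger in the Runx1 KO library, toward the monocyte side, for 24 genes (0.534%) and at least 2-fold smaller for 4 (0.0891%). Of the 24, the larger shift between libraries was in Ly86 for 19 and in Gstm1/CD63 for 5. Among the 24, 3 kinds are described, grouped after their values were seen. The first were carried mostly by cluster 22 and the second mostly by a few cells with mature neutrophil RNA. The third had the larger shift at the neutrophil end. Other genes lay outside these kinds. Tctex1d1, Dmkn and Trem3 had differences of 1.63, 1.52 and 1.51, and of 1.67, 1.55 and 1.53 without cluster 22. Their larger shift was in Ly86, and how many cells carried them was not examined.

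Genes carried mostly by cluster 22 made the first kind. Chil3, a chitinase-like secreted protein, was at 1.73 CPM in Ly86 of Control and 228 CPM in Ly86 of the Runx1 KO library, against 0.721 and 3.67 CPM in Gstm1/CD63. The galectin Lgals3 was at 6.14 and 119 CPM in Ly86, against 0.554 and 0.612 CPM. Lyz2, lysozyme, was at 236 and 1394 CPM in Ly86, against 97.6 and 122 CPM, and fibronectin, Fn1, was at 2.49 and 57.1 CPM, against 0.111 and 0.278 CPM. The 41 cells of cluster 22 were 7.41% of the Ly86 cells of the Runx1 KO library and held 4.35% of their UMIs, with a median of 14708 UMIs against 27109.5 in the rest. They held 92.8% of the Chil3 UMIs of the class, 89.8% of Lgals3, 82.1% of S100a4, 69.1% of Lyz2 and 68.7% of Fn1. Within them Lyz2 reached 22132 CPM, while Mpo was at 97.1 CPM against 4415 CPM in the other Ly86 cells and Kit at 6.26 against 49.5 CPM. Irf8 was at 449 CPM in them and 390 CPM in the rest. Cd74, of the MHC class II and dendritic cell lists, was at 230 CPM in them and 0.356 CPM in the rest. The 9 listed macrophage markers summed to 8.76 CPM in Ly86 of Control and 20.2 CPM in Ly86 of the Runx1 KO library. Of these markers, 5 were under 1 CPM in every class. Lyz2 was also higher outside cluster 22, at 451 CPM in the remaining Ly86 cells of the Runx1 KO library against 236 CPM in Control.

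Leaving out the Ly86 cells of cluster 22, a step chosen after seeing the data, moved the difference of the contrast from 3.99 to 1.00 for Chil3, from 2.99 to 0.54 for Lgals3 and from 2.21 to 0.66 for Lyz2. For S100a4 it went from 1.37 to -0.18, and for S100a6 from 1.07 to 0.02. Of the 24 genes, 15 kept a difference of at least 2-fold, and 13 genes passed both the minimum and the 2-fold line. The median of the monocyte list in the Runx1 KO library became 1.61, against 1.51 in Control. The contrasts of Irf8 and Cebpe in the Runx1 KO library became 3.75 and -3.02.

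Genes of late neutrophils made the second kind. S100a8 and S100a9, the subunits of calprotectin, were at 7.41 and 7.90 CPM in Ly86 of Control and 190 and 195 CPM in Ly86 of the Runx1 KO library. In Gstm1/CD63 they were at 32.9 and 11.7 CPM in Control and 62.2 and 32.9 CPM in the Runx1 KO library. S100a8 was the only measured gene at least 2-fold apart in opposite directions, with contrasts of -1.30 and 1.47. The positive value rests on few cells. The resistin-like Retnlg was at 0.433 and 84.7 CPM in Ly86. Of the 553 Ly86 cells of the Runx1 KO library, 12 held at least 10 S100a8 UMIs and carried 83.2% of its UMIs. In the other Ly86 cells S100a8 was at 32.6 CPM, against 62.2 CPM in all Gstm1/CD63 cells. That comparison is 1-sided and does not set a direction. The 15 Gstm1/CD63 cells of the Runx1 KO library with at least 10 S100a8 UMIs were not left out. For Retnlg, 6 Ly86 cells of the Runx1 KO library held at least 10 UMIs and carried 94.3%. No Control cell of Ly86 reached 10 UMIs of either. In those 6 cells S100a9 was at 18043 CPM and the collagenase Mmp8 at 362 CPM, against 31.9 and 6.94 CPM in the other 547, and 5 of them were in cluster 16. The secondary granule genes Ltf, Ngp and Camp were at 0, 7.54 and 60.3 CPM in them, against 1.65, 2.96 and 8.11 CPM in the rest. The basophil and mast cell genes Cpa3 and Ms4a2 were at 422 and 37.7 CPM in them, against 28.9 and 1.31 CPM in the rest. The transcription factor Gata1 was at 45.2 against 4.40 CPM. The 10 mature neutrophil markers summed to 32.7 CPM in Ly86 of Control and 547 CPM in Ly86 of the Runx1 KO library, and to 33.5 and 171 CPM in the Car1 class. S100a8 itself was at 10.7 and 52.6 CPM in the Car1 class, so its summed level there also differed between libraries. In the Runx1 KO library 9 of 3003 Car1 cells held at least 10 S100a8 UMIs, and the most in a cell was 363. After thinning, 6.01% of Car1 cells of Control and 15.3% of those of the Runx1 KO library had an S100a8 UMI. The part of free RNA in these levels was not tested.

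Ly6c2 led the third kind, and its larger shift was at the neutrophil end. Ly6c2 encodes a Ly6C antigen of monocytes and their progenitors, on chr15:75108158-75111970 (minus strand, GRCm38), and has a near-identical neighbour, Ly6c1, with which reads can be confused. It was at 415, 303 and 334 CPM in Ly86, Gstm1/Ly86 and Gstm1/CD63 of Control and 302, 65.5 and 46.4 CPM in the Runx1 KO library. Its contrast was 0.31 in Control, where the ends hardly differed, and 2.47 in the Runx1 KO library. After thinning, 63.5% of Gstm1/CD63 cells of Control and 14.9% of those of the Runx1 KO library had a UMI, against 56.3% and 56.0% of Ly86 cells and 2.24% and 0.342% of Car1 cells. Without thinning the Gstm1/CD63 shares were 84.9% and 34.7%. Within cluster 10, which held Gstm1/CD63 cells of both libraries, Ly6c2 was at 287 CPM in the 128 Control cells and 27.9 CPM in the 226 Runx1 KO cells. At the monocyte end it was lower too. In Ly86 cells of cluster 2 it was at 419 CPM in Control and 228 CPM in the Runx1 KO library, and in those of cluster 10 at 479 and 231 CPM. The difference of its contrast lay between 1.59 and 2.36 over every alternative run, and was 1.80 without cluster 22.

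The larger shift was at the neutrophil end for 4 other genes of the 24. Gstm1, a glutathione transferase and class-naming gene, was at 94.9, 150 and 383 CPM in Control and 131, 105 and 231 CPM in the Runx1 KO library, with contrasts of -1.90 and -0.77. Mcpt8, a basophil protease, had contrasts of -1.21 and 0.62, and 6 of 621 Gstm1/CD63 cells of Control, with at least 10 UMIs each, held 41.7% of its UMIs there. Ldhb and Slpi had differences of 1.49 and 1.20. Pglyrp1, a peptidoglycan recognition protein of granules, differed more at the monocyte end, at 11.4 and 49.7 CPM in Ly86 against 160 and 190 CPM in Gstm1/CD63.

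**Figure D5:**
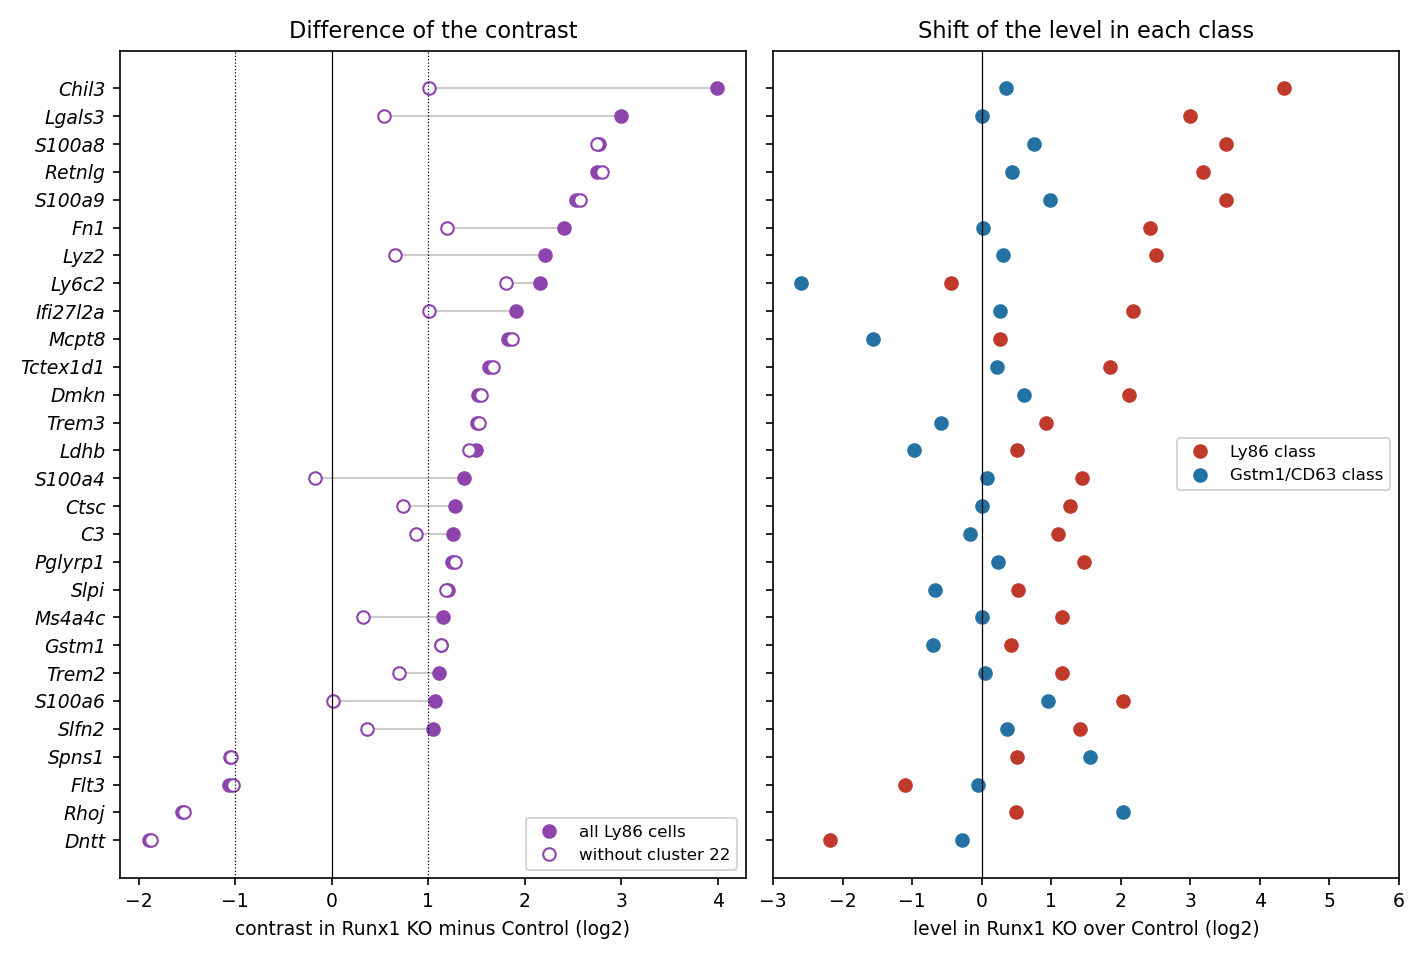
Left, difference of the contrast (Runx1 KO minus Control, log2) for the 28 genes past 2-fold, with all Ly86 cells (filled) and without those of cluster 22 (open), dotted lines at 2-fold. Right, level in Runx1 KO over Control (log2) in Ly86 and in Gstm1/CD63, where Ly6c2 has a difference of -2.61 in Gstm1/CD63.

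The 4 genes with a smaller signed contrast in the Runx1 KO library were Dntt and Flt3, whose ends were closer there, and Rhoj and Spns1, whose ends were further apart on the neutrophil side, with differences of -1.55 and -1.05. Dntt, the terminal transferase of lymphoid progenitors, was at 59.9 CPM in Ly86 of Control and 5.38 CPM in Ly86 of the Runx1 KO library, and at 2.22 CPM and 0 in Gstm1/CD63. In Control 71 of 1326 Ly86 cells held at least 10 Dntt UMIs, and 57 of these were in cluster 5. Without the Ly86 cells of cluster 5 the difference of Dntt went from -1.90 to -0.49 and that of the cytokine receptor Flt3 from -1.06 to -0.72. The listed lymphoid markers summed to 240 CPM in Ly86 of Control and 85.7 CPM in the Runx1 KO library. Rhoj, a small GTPase, and the lysosomal transporter Spns1 were at 47.5 and 69.9 CPM in Gstm1/CD63 of the Runx1 KO library against 3.99 and 17.2 CPM in Control, and both were also higher in the other classes examined, such as Car1, at 17.1 and 38.0 CPM against 0.134 and 17.8 CPM.

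Runx1 itself was on the monocyte side in Control, at 150, 151 and 78.8 CPM, and was higher in every class of the library labelled Runx1 KO, at 295, 352 and 239 CPM. Its contrast was 0.85 and 0.29. The 3′ UMIs counted here need not fall in the deleted part of the gene, so this level does not check the label. Cbfb, its binding partner, was at 76.1, 77.1 and 57.9 CPM in Control and 61.7, 73.1 and 55.4 CPM in the Runx1 KO library.

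The 250 bases before the RefSeq start of each gene (GRCm38.p6) were searched on both strands for the letters of 4 factor families: TGTGGT (RUNX), AGGAAGT (ETS), TTGCNNAA (C/EBP) and GAAANNGAA (IRF). RUNX letters were present in 14.2% of 27025 genes and 10.9% of the 3581 measured genes with an entry. They were present in 9 of 47 matched genes of the shared monocyte side, 4 of 27 of the shared neutrophil side and 6 of 21 with the larger contrast in the Runx1 KO library. ETS letters were found in 6 of the 47, 2 of the 27 and 6 of the 21, against 8.13% of the measured genes. For C/EBP letters the counts were 1 of the 47, 2 of the 27 and 6 of the 21, against 7.51%. IRF letters were found in 7 of the 47, 1 of the 27 and 2 of the 21, against 6.76% of the measured genes. Such a match is a description of letters and not of binding.

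Ly6c2 and S100a9 are shown as examples of genes with a larger contrast in the Runx1 KO library that hold RUNX letters, with every match in capitals. The windows are chr15:75111972-75112221 for Ly6c2 and chr3:90695722-90695971 for S100a9, both on the minus strand. In Ly6c2 the capitals mark RUNX letters 179 bases and ETS letters 107 bases before the start. In S100a9 they mark C/EBP letters 236 bases and RUNX letters 64 bases before it.
Ly6c2: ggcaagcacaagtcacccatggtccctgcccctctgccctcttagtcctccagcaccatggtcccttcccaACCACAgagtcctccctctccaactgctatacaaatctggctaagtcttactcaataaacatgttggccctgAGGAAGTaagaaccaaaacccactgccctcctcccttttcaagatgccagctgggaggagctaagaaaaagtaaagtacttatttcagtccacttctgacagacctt
S100a9: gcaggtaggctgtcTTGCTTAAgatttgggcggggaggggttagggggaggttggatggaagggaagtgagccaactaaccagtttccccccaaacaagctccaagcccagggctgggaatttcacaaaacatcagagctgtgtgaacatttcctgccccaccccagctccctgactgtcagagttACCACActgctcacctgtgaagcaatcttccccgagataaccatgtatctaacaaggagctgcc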

How the data were processed

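The deposited matrix holds counts (UMIs) of 31053 genes in 14795 cells, made with a 10x 3′ kit, per the labels. The submitters' processing notes name Cell Ranger and mm10, without settings. The deposited annotation gives each cell's library name, its class (by a method no label describes), its total counts, and the fraction of mitochondrial UMIs, which reached 76.1%. The deposited cells had at least 1000 detected genes each. The library names for wild type and knockout cells were read as Control and Runx1 KO. Doublets were not called here.

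UMIs were summed per library and class and scaled to CPM (Python 3.11.15, numpy 2.4.6, scipy 1.17.1). A pseudocount of 10 CPM, a minimum of 30 CPM and 100 UMIs, and a fold of 2 were used. Ratio intervals are conditional exact and shares Clopper-Pearson. Clusters came from the 2000 most variable genes, 30 principal components, 15 neighbours and Leiden at resolution 1 (leidenalg 0.10.2), giving 22. Alternatives changed the pseudocount, minimum, scaling, averaging and cells used, and those that leave out clusters 5, 18 or 22 or shared barcodes were added after seeing the data. The computation was tested on simulated data. No test was made, with 1 library per genotype.

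Named genes were the 12 highest and 12 lowest contrasts by the smaller absolute value of the 2 libraries, the 8 highest and 8 lowest differences, up to 4 members of each of 18 lists, Ly86, Gstm1, Cd63 and Runx1, without predicted, sex-linked or mitochondrial genes. Camp, Ccr3, Cd74, Cebpa, Cebpb, Cebpd, Csf2ra, Csf3r, Dmkn, Gata1, Ifngr1, Ifngr2, Il5ra, Kit, Ldhb, Ltf, Mcpt8, Mmp8, Mpo, Ms4a2, Ngp, Slpi, Stat3, Tctex1d1 and Trem3 fall outside that rule and were picked with their values in view. The members and lists were chosen with earlier results of these data known. Positions are from GENCODE M21 (GRCm38) and promoter letters from RefSeq.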

Additional observations from a re-analysis of the deposited data

Results flagged for a closer look

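The summed contrast of S100a8 had opposite signs in the 2 libraries. Its log2 contrast of Ly86 over Gstm1/CD63 was -1.30 in Control and 1.47 in the Runx1 KO library, a difference of 2.77 that was not tested, since each genotype had 1 library. Over clusters that held at least 10% of the class in both libraries (2 for Ly86, 10 for Gstm1/CD63) the contrasts were -0.93 and 0.77. Outside the 12 Ly86 cells with at least 10 S100a8 UMIs, its level in Ly86 of the Runx1 KO library was 32.6 CPM. All Gstm1/CD63 cells together were at 62.2 CPM. The 15 of them with at least 10 UMIs were not left out, so these 2 levels do not set a direction.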

How the results depend on the processing

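With 1 library per genotype no replicate could be left out, and the values have no replicate error. No paired analysis was possible because each group has 1 library. Of the counts and positions, 124 values stayed within the limit set for them and 16 moved. A pseudocount of 50 CPM, which by construction shrinks folds of low genes, left 28 and 42 genes on the Ly86 side in Control and Runx1 KO, 26 and 16 on the Gstm1/CD63 side, 19 and 14 shared by both libraries, 11 with a larger and 0 with a smaller contrast in Runx1 KO. A pseudocount of 1 CPM gave 12 smaller contrasts. Thinning to 5000 UMIs gave 37 larger and 7 smaller contrasts, and the cause was not tested. Clusters that held at least 10% of a class in both libraries were only cluster 2 for Ly86 and cluster 10 for Gstm1/CD63. Over these, 78 genes were on the Gstm1/CD63 side in Runx1 KO and 16 had a smaller contrast, and the cause was not tested. Without the Ly86 cells of cluster 22, and also without those of clusters 5, 18 and 22, 13 genes had a larger contrast. Without those of cluster 5, 2 had a smaller one. Of the named differences of at least 2-fold, 4 values changed sign. S100a4 went to -0.36 over shared clusters, -0.18 without cluster 22 and -0.16 without clusters 5, 18 and 22, and S100a6 went to -0.55 over shared clusters. Smaller differences changed sign too: over shared clusters Prg2 went from -0.48 to 1.47, Prg3 from -0.74 to 0.36, Cpa3 from 0.63 to -0.12 and Ccr2 from 0.22 to -0.48. Leaving out the cells of shared barcodes moved no count beyond its limit.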
